A study of Oryza sativa with 48 samples.

Results

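The 100 genes described here were abundant in rice leaves before flooding and stood at a small fraction of that level after 1 day under water. They were chosen by the measured values. Counts were multiplied by 1000000 and divided by the column total, which gives CPM, and averaged over the 3 libraries of each group, and genes with a mean of at least 20 CPM in all 4 day 0 groups were ranked by a score, the highest of log2((day 1 + 1)/(day 0 + 1)) over the 4 combinations of genotype and leaf type. The 100 genes with the lowest score make up 1.47% of the 6785 genes that met the day 0 threshold, out of 37830 genes in the table. Values of days 0 and 1 selected the genes, so every comparison with these days is a description with no test. Tests compared groups of days 3 and 6 alone, but the scaling, the filter on low counts and the estimate of the spread used all 48 libraries.

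Elongating and non-elongating leaves of the rice line M202(Sub1) and of M202 were collected before submergence (day 0) and directly after 1, 3 and 6 days of complete submergence. M202 is a japonica cultivar, and M202(Sub1) is its near-isogenic line with the Sub1 locus, which carries SUB1A, an ethylene response factor known for restraining shoot elongation under water. Per the labels, the plants grew in pots in a greenhouse, the elongating leaf was the fifth and the non-elongating leaves were the lower ones. There were 3 libraries in each of the 16 groups, independent biological replicates per the labels, and day 0 was the control of every time course. None of the groups was kept in air on days 1, 3 or 6, so submergence and the ageing of the leaf cannot be told apart.

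Submergence restricts the access of leaves to air and light, which lowers photosynthesis, so that carbon and nitrogen metabolism draw more on stored reserves. The level of a transcript depends on how fast it is made and how fast it is degraded, and genes of nitrate and sulfate reduction are known in plants to respond to light and to sugar supply. Among the 100 genes, 6 have a symbol that could be checked against the rice gene table. They are the plasma membrane aquaporin gene PIP2;7, the vacuolar membrane aquaporin gene TIP1;2, the nitrate reductase gene NIA1, the starch synthase gene SS1, the sulfate reduction gene APR1 (adenosine 5'-phosphosulfate reductase) and the beta-glucosidase gene BGLU16. The remaining genes are given by their identifier alone.

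The libraries held 4873142 to 10369501 counts (median 6854259.5), and replicates correlated at 0.9788 to 0.9915 across genes. At these depths 3 counts correspond to 0.289 to 0.616 CPM, which is treated as the lowest measurable level. Values under it are printed where libraries held fewer counts. The summed level of 6 genes listed as leaf mesophyll markers (small subunit of Rubisco, Rubisco activase and light-harvesting proteins) lay between 3537 and 36365 CPM in the 16 groups, while 3 root markers summed to 0.434 to 5.24 CPM and 2 shoot meristem markers to at most 0.195 CPM, 1 of them at 0 throughout. None of the 6 mesophyll genes was among the 100, which says nothing of other genes of these families. Of their symbols only that of Rubisco activase could be checked. Markers of dividing cells summed to 9.82 to 23.6 CPM. CPM values are not scaled by gene length, so levels are compared between samples and not between genes.

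Before submergence the 100 genes averaged 20.2 to 2088 CPM in the single groups, and together they held 1.72 ± 0.0858% of all counts in elongating leaves of M202(Sub1), 2.04 ± 0.0362% in its non-elongating leaves, 1.55 ± 0.0401% in elongating leaves of M202 and 1.9 ± 0.062% in its non-elongating leaves (SD, n = 3 each). After 1 day the shares were 0.0743 ± 0.00226% and 0.0496 ± 0.00408% in elongating and non-elongating leaves of M202(Sub1), and 0.0703 ± 0.00203% and 0.0599 ± 0.00178% in those of M202 (SD, n = 3 each). In each gene and each of the 4 combinations of genotype and leaf type, all day 1 libraries lay below all day 0 libraries, which the rule brings about. In bulk tissue, fewer cells of a type and less RNA per cell cannot be told apart. The mesophyll markers were lower on day 1 as well. Their sum was 7540 to 9437 CPM in the day 1 libraries against 33302 to 38001 CPM on day 0 in elongating leaves of M202(Sub1), and 4308 to 5290 against 19783 to 22994 CPM in its non-elongating leaves. In M202 it was 9258 to 9901 against 26432 to 30062 CPM in elongating and 3220 to 3857 against 14921 to 20989 CPM in non-elongating leaves. Group means were thus 19.7 to 34.5% of day 0 on day 1 and 27 to 43.8% on days 3 and 6, with 5 or 6 of the 6 markers below day 0 in each group, and their part in the result was not tested.

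The level left on day 1 was between 0 and 12.2% of day 0. The median gene kept 2.87% in elongating and 1.55% in non-elongating leaves of M202(Sub1), and 4.54% and 2.7% in elongating and non-elongating leaves of M202. The label of genes shut off holds in the strict sense for a part of them: 10 of the 100 averaged under 1 CPM in all 4 day 1 groups, 10 still averaged 20 CPM or more in at least 1 day 1 group, and 2 did so in all 4. The score ran between -7.04 and -2.92. At the edge of the choice, OS06G0699700 (chromosome 6) stood just inside with -2.925, and OS06G0634300 just outside with -2.901, so the limit at 100 genes marks no gap.

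**Figure D1:**
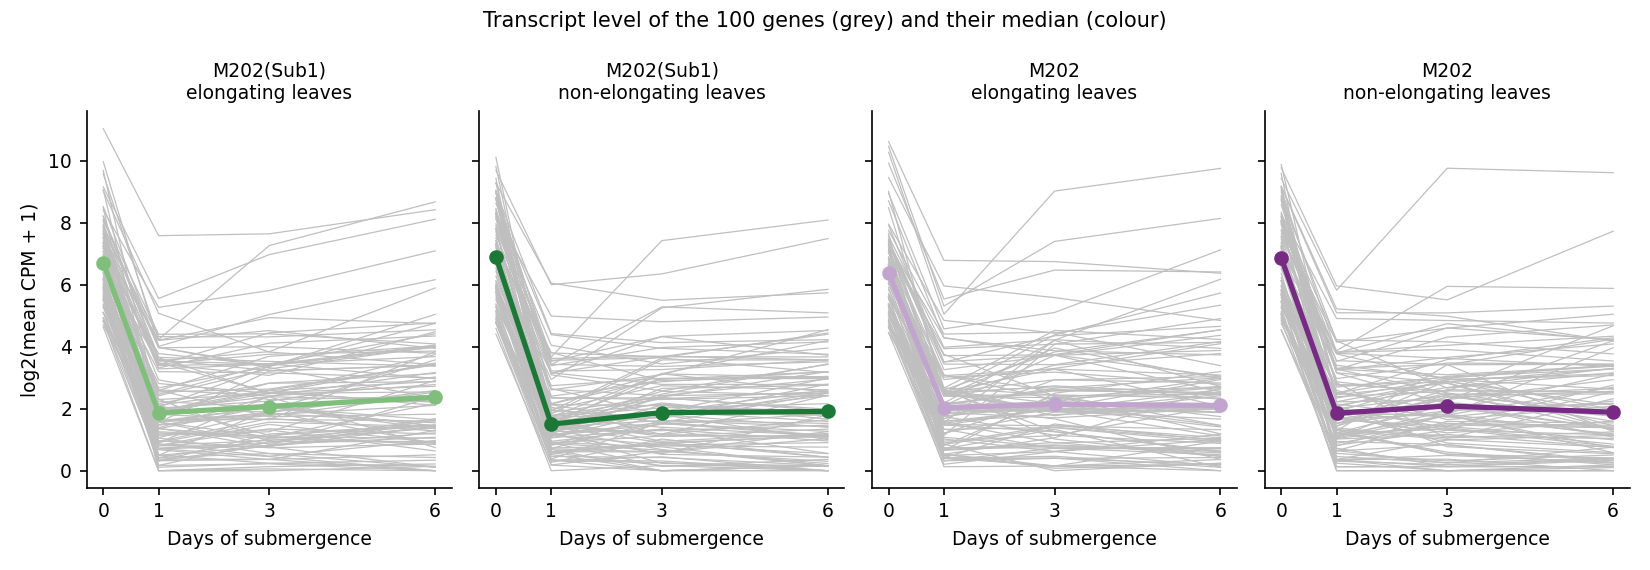
Level of the 100 genes, as log2(mean CPM + 1) on the vertical axis, by days of submergence (0, 1, 3 and 6), in 1 panel for each genotype and leaf type; each grey line is a gene and the coloured line is their median. The lines drop between day 0 and day 1 in all 4 panels, and the median gene stands at 4.01, 2.4, 3.98 and 2.75% of day 0 on day 6 from the left panel to the right, beside 2.87, 1.55, 4.54 and 2.7% on day 1.

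OS02G0194700, on chromosome 2, had the lowest score. Its level on day 0 was 270, 213 and 306 CPM in elongating leaves of M202(Sub1), 418, 615 and 472 CPM in its non-elongating leaves, 157, 192 and 141 CPM in elongating leaves of M202 and 444, 466 and 395 CPM in its non-elongating leaves. From day 1 to day 6 no group averaged over 1.77 CPM. OS02G0314300, the next by score and also on chromosome 2, averaged 194 ± 19.3 and 526 ± 43.7 CPM on day 0 in elongating and non-elongating leaves of M202(Sub1), and 200 ± 43 and 551 ± 71.2 CPM in those of M202 (SD, n = 3 each). Its highest group mean after day 0 was 2.24 CPM, on day 1 in non-elongating M202 leaves. Both genes thus stayed at a few CPM or less for 6 days. Their highest group means lay above the lowest measurable level of 0.289 to 0.616 CPM.

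Recovery over days 3 and 6 was small for most of the 100 genes. They were chosen by low values on day 1, which favours later values above day 1, so rises after day 1 are described and were not tested. The median log2 ratio to day 0 on days 1, 3 and 6 was -4.54, -4.33 and -4.12 in elongating leaves of M202(Sub1), and -4.77, -4.67 and -4.77 in its non-elongating leaves. In M202 the corresponding medians were -4.14, -3.87 and -4.16 in elongating leaves and -4.63, -4.55 and -4.61 in non-elongating leaves. Medians computed from single libraries of a group had an SD of 0.04 to 0.28 on the same log2 scale. For elongating leaves of M202(Sub1) these library medians were -4.21 to -4.14 on day 6 and -4.65 to -4.50 on day 1, with no overlap. For elongating leaves of M202 those of day 3, at -4.01 to -3.91, lay above those of day 1 and of day 6, at -4.21 to -4.07 and -4.21 to -4.08. In non-elongating leaves of M202 the library medians of all 3 days overlapped, and in those of M202(Sub1) day 3 overlapped with both other days. Whether day 6 or day 3 had the higher median depended on the pseudocount in every combination but elongating leaves of M202(Sub1): with 5 in place of 1 in non-elongating leaves of M202(Sub1) it was -3.45 on day 6 against -3.58 on day 3, and -2.95 against -3.09 and -3.50 against -3.51 in elongating and non-elongating leaves of M202. The other 6685 genes that met the day 0 threshold had medians between -0.22 and 0.10 in the 12 submerged groups. They were less abundant on day 0, with median levels of 55.7 to 60.3 CPM in the day 0 groups against 82 to 119 CPM for the 100 genes. The 100 genes next in the ranking, also chosen through day 1, had medians on day 6 of -2.33 and -2.84 in elongating and non-elongating leaves of M202(Sub1) and of -2.30 and -2.59 in those of M202.

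On days 3 and 6, 95 of the 100 genes stayed under 50% of their day 0 level in all 8 groups, and 62 stayed under 10% in all 8. Among the other 6685 abundant genes 439 stayed under 50% and 9 under 10% in all 8 groups. Of the 100 genes next in the ranking, 88 stayed under 50% and 8 under 10%. Expressed as the part of the log2 fall regained by day 6, 7 of the 100 had regained at least 25% in all 4 combinations of genotype and leaf type, 20 in 1 to 3 of them, and 73 in none, and 18 of these 73 were lower on day 6 than on day 1 in all 4. The median part regained by day 6 was 7.04% in elongating and 5.22% in non-elongating leaves of M202(Sub1), and -0.0814% and -0.359% in those of M202.

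**Figure D2:**
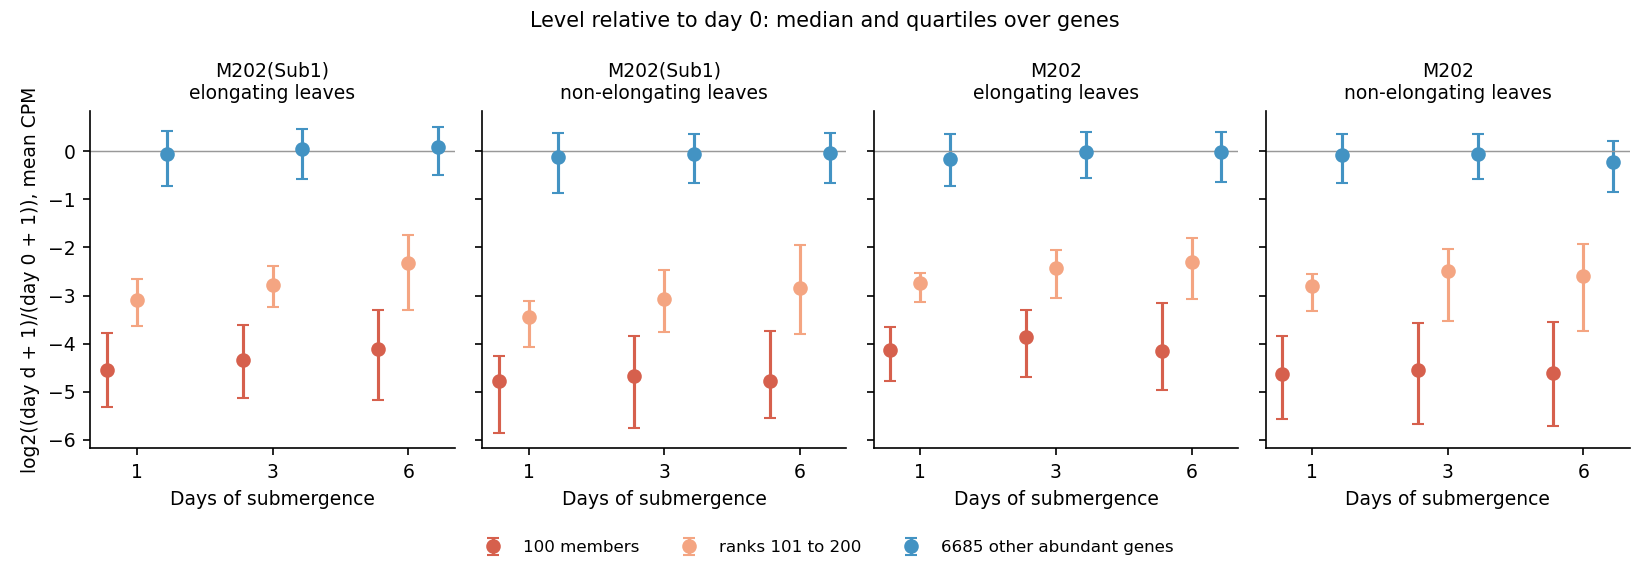
Level relative to day 0, as log2 of mean CPM + 1 on a submerged day over that on day 0 (vertical axis), on days 1, 3 and 6, in 1 panel for each genotype and leaf type; points are medians over genes and bars reach to the quartiles. The medians of the 100 genes stay between -4.77 and -3.87 on all 3 days in all 4 panels. Those of the next 100 genes of the ranking lie above them, and those of the 6685 other abundant genes stay between -0.22 and 0.10.

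The summed share of all counts gives another view, since it weights genes by their counts. It was 0.104 ± 0.0038% on day 3 and 0.189 ± 0.0152% on day 6 in elongating leaves of M202(Sub1), and 0.078 ± 0.00278% and 0.107 ± 0.00335% in its non-elongating leaves. In M202 it was 0.147 ± 0.00843% on day 3 and 0.209 ± 0.0119% on day 6 in elongating leaves, and 0.149 ± 0.00319% and 0.161 ± 0.00852% in non-elongating leaves (SD, n = 3 for each value). The sums on day 6 lay above those of day 1 in every library of all 4 combinations, while the median log2 ratio over genes in M202 stood at -4.16 and -4.61 on day 6 in elongating and non-elongating leaves, against -4.14 and -4.63 on day 1. OS12G0189300, described below with its libraries, alone made up 21.5 ± 0.87% and 25.2 ± 2.65% of the sum on day 6 in elongating and non-elongating leaves of M202(Sub1), and 41 ± 2.1% and 48.3 ± 4.35% in those of M202 (SD, n = 3 each). Without it the sum on day 6 was 0.149 ± 0.013% and 0.0804 ± 0.00524% of all counts in elongating and non-elongating leaves of M202(Sub1), and 0.123 ± 0.00787% and 0.0832 ± 0.00549% in those of M202. On day 1 it was 0.0725 ± 0.00226% and 0.0484 ± 0.00388% in M202(Sub1) and 0.0671 ± 0.00173% and 0.0544 ± 0.00175% in M202 (SD, n = 3 each), so day 6 stayed above day 1 in every library. The choice of genes by low day 1 values favours such a rise, with and without OS12G0189300.

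Both aquaporin genes stayed low. PIP2;7 (OS09G0541000, chromosome 9) encodes a channel of the plasma membrane that lets water enter and leave cells. Its day 0 level was 294, 283 and 311 CPM in elongating and 140, 167 and 165 CPM in non-elongating leaves of M202(Sub1), and 200, 241 and 281 CPM and 159, 150 and 134 CPM in those of M202. On day 3 it was at 9.11, 12.8 and 9.49 CPM in elongating leaves of M202(Sub1) and at 9.68, 13.5 and 13.4 CPM in elongating leaves of M202, against 0, 0.369 and 1.44 CPM and 0.3, 0.561 and 0.68 CPM in non-elongating leaves of the same lines. On day 6 elongating leaves of M202(Sub1) had 8.94, 10.1 and 8.98 CPM and those of M202 had 3.86, 3.56 and 7.07 CPM, while the 6 libraries of non-elongating leaves had at most 0.42 CPM. Elongating leaves thus lay above non-elongating leaves of the same line on both days, with no overlap of libraries.

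The difference between the leaf types was called in both lines on both days by edgeR's quasi-likelihood test, with Benjamini-Hochberg adjusted p-values between 3.83e-13 and 1.72e-09; its size is not given as a fold, since the level in non-elongating leaves was near or under the lowest measurable one. On day 6 PIP2;7 was higher in elongating leaves of M202(Sub1) than in those of M202, by 0.90 ± 0.25 on the log2 scale (SE; edgeR quasi-likelihood test, adjusted p = 0.00774). This call ended without library 1 or without library 2 of the M202 group, where the differences were 0.78 and 0.70. In elongating leaves of M202 it fell between the later days, to 4.83 ± 1.95 CPM on day 6 against 12.2 ± 2.19 CPM on day 3 (SD, n = 3 each; log2 change -1.35 ± 0.25, edgeR adjusted p = 4.86e-05).

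TIP1;2 (OS01G0975900, chromosome 1), whose product lets water pass the vacuolar membrane, had on day 0 52.7, 46.1 and 56.5 CPM in elongating and 199, 240 and 227 CPM in non-elongating leaves of M202(Sub1). In M202 it had 18.2, 27.7 and 16.6 CPM in elongating and 134, 186 and 175 CPM in non-elongating leaves on day 0. All 24 libraries of days 3 and 6 had at most 0.937 CPM. No comparison of these days was called for it, and at 3 counts or fewer in most libraries a difference was not detectable.

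NIA1 (OS08G0468100, chromosome 8) encodes nitrate reductase, which reduces nitrate to nitrite as the first step of nitrate assimilation. Its day 0 level was 168, 149 and 188 CPM in elongating and 305, 348 and 386 CPM in non-elongating leaves of M202(Sub1), and 91.6, 80 and 89.1 CPM and 301, 305 and 358 CPM in those of M202. By day 1 the group means were 5.04 to 7.87 CPM, and they were lower still later. On day 6 elongating leaves of M202(Sub1) had 2.73, 2.4 and 2.48 CPM against 0.193, 0.237 and 1.11 CPM in those of M202, so that the libraries of the lines did not overlap. It was called higher in M202(Sub1) (edgeR adjusted p = 0.000866), with no size given, since 2 of the 3 M202 libraries were under the lowest measurable level. Non-elongating leaves of M202 had 1.09, 1.14 and 1.12 CPM on day 6 against 3, 3.65 and 3.74 CPM on day 3 (log2 change -1.40 ± 0.42, edgeR adjusted p = 0.0103).

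SS1 (OS06G0160700, chromosome 6) encodes a soluble starch synthase, which lengthens the glucose chains of starch. It kept 7.88 to 14.2% of its day 0 level in the 12 submerged groups. Its level in elongating leaves of M202 was 18.7, 27.3 and 20.8 CPM on day 6 against 10.9, 14.5 and 11.8 CPM on day 3, with no overlap (log2 change 0.85 ± 0.15 SE, edgeR adjusted p = 3.03e-05). On day 3 these M202 leaves also lay under the non-elongating leaves of M202, at 12.4 ± 1.85 CPM against 27.7 ± 1.59 CPM (SD, n = 3 each; log2 difference -1.04 ± 0.15, edgeR adjusted p = 4.03e-07). A gene listed for a starch branching enzyme, OS04G0409200 on chromosome 4, averaged 73.9 to 108 CPM in the day 0 groups and 4.35 to 6.35 CPM in the 8 groups of days 3 and 6, with no call among them. The symbol of this gene could not be checked.

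OS04G0518400 on chromosome 4, listed for a phenylalanine ammonia-lyase with a symbol that also could not be checked, averaged 45.2 to 83.6 CPM on day 0. On day 6 it had 0.497, 0.719 and 1.24 CPM in elongating leaves of M202(Sub1), against 2.12, 3.68 and 3.05 CPM in those of M202. It was lower in M202(Sub1) elongating leaves on day 3 and on day 6, with log2 differences of -1.98 ± 0.60 and -1.94 ± 0.55 (SE; edgeR adjusted p = 0.0185 and 0.00777). The day 3 call ended when library 1 of M202 or library 1 or 2 of M202(Sub1) was left out, with differences of -1.72, -1.75 and -1.91, and the day 6 call without library 1 of M202(Sub1), with -1.69.

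APR1 (OS07G0509800, chromosome 7), whose enzyme reduces activated sulfate on the way to cysteine, was among the genes with the clearest late rise. On day 6 it had 44.7, 59.3 and 71.2 CPM in elongating leaves of M202(Sub1), against 15, 13.7 and 11.2 CPM on day 3, and in its non-elongating leaves 20.6, 24.5 and 22.2 CPM against 11.4, 5.16 and 6.12 CPM. In M202 it had 54, 54.7 and 47.1 CPM on day 6 against 19.4, 19.7 and 20.2 CPM on day 3 in elongating leaves, and 20.7, 34.8 and 17.9 CPM against 6.01, 3.65 and 5.1 CPM in non-elongating leaves. Day 6 libraries lay above day 3 libraries in each of the 4 combinations. The log2 changes were 2.08 ± 0.22 and 1.52 ± 0.26 in elongating and non-elongating leaves of M202(Sub1), and 1.41 ± 0.21 and 2.58 ± 0.26 in those of M202 (SE; edgeR adjusted p = 1.33e-09, 6.41e-05, 1.78e-06 and 2.94e-10).

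Relative to day 0, APR1 stood at 20 and 7% in elongating and non-elongating leaves of M202(Sub1) on day 6, and at 29.4 and 8.54% in those of M202. It was higher in elongating than in non-elongating leaves on both days in both lines, in M202(Sub1) by 0.81 ± 0.26 on day 3 and 1.37 ± 0.21 on day 6 and by 2.13 ± 0.27 and 0.96 ± 0.20 in M202 on the log2 scale (SE; edgeR adjusted p of at most 0.0217). The smallest of these, in M202(Sub1) on day 3, ended without library 1 or 2 of the elongating leaves, with 0.74 and 0.77, and without library 2 or 3 of the non-elongating leaves, with 0.60 and 0.71.

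BGLU16 (OS04G0513400, chromosome 4) belongs to the beta-glucosidases, which split glucose from glucosides. In elongating leaves on day 6 it had 13.8, 16.1 and 15.2 CPM in M202(Sub1) against 80, 72.2 and 61.4 CPM in M202. The M202 value was 88.3% of its day 0 mean of 80.7 ± 22.1 CPM (SD, n = 3), and the M202(Sub1) value was 19% of 79.1 ± 3.51 CPM. In non-elongating leaves on day 6 it had 5.07, 5.95 and 6.24 CPM in M202(Sub1) against 15.6, 17.9 and 20.2 CPM in M202. It was lower in M202(Sub1), with log2 differences of -2.33 ± 0.20 in elongating and -1.80 ± 0.25 in non-elongating leaves (SE; edgeR adjusted p = 1.09e-12 and 3.18e-07).

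**Figure D3:**
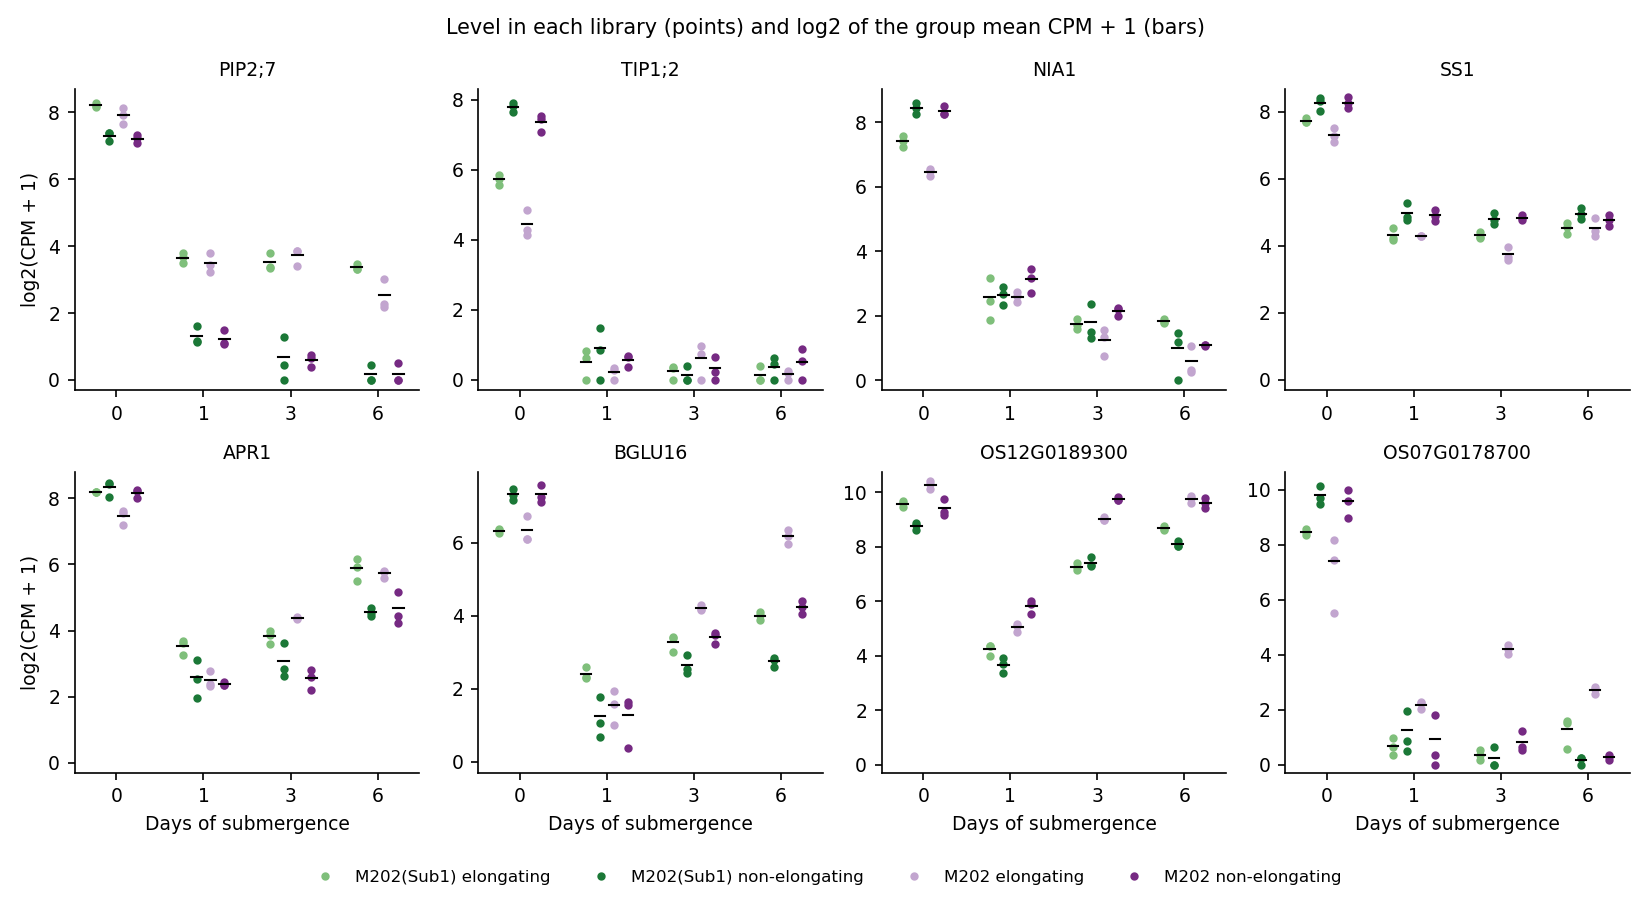
Level of 8 of the 100 genes in each library, as log2(CPM + 1) on the vertical axis, by days of submergence; points are libraries, coloured by genotype and leaf type in the order M202(Sub1) elongating, M202(Sub1) non-elongating, M202 elongating and M202 non-elongating, and black bars mark the log2 of the group mean CPM + 1. TIP1;2 stays at 0.937 CPM or less on days 3 and 6, APR1 is higher on day 6 than on day 3 in all 4 combinations, and OS12G0189300 comes back to 114 to 126% of day 0 in non-elongating leaves of M202.

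Only 5 of the 100 genes reached 50% of day 0 in at least 1 group of days 3 and 6, and they were chosen for naming after their values were seen. These are BGLU16, OS12G0189300, OS12G0291400, OS04G0669900 and OS02G0129800. OS12G0189300, on chromosome 12, came back furthest. In non-elongating leaves it had 156, 159 and 196 CPM in M202(Sub1) on day 3 against 915, 833 and 835 CPM in M202, and on day 6 294, 260 and 258 CPM against 878, 782 and 677 CPM. The M202 values were 126 and 114% of the day 0 mean of 685 ± 154 CPM on days 3 and 6, and the M202(Sub1) values 39 and 62% of 436 ± 38.3 CPM (SD, n = 3 each).

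In elongating leaves OS12G0189300 had 141, 166 and 151 CPM in M202(Sub1) on day 3 against 499, 501 and 547 CPM in M202, and on day 6 396, 386 and 436 CPM against 784, 872 and 917 CPM. It was lower in M202(Sub1) in all 4 comparisons of the lines, with log2 differences of -1.78 ± 0.15 and -1.16 ± 0.14 in elongating leaves on days 3 and 6 and of -2.26 ± 0.15 and -1.69 ± 0.15 in non-elongating leaves (SE; edgeR adjusted p of at most 1.98e-08). The lines already differed in the same direction on day 0, at 757 ± 56.3 against 1233 ± 122 CPM in elongating leaves (SD, n = 3 each).

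OS12G0291400, also on chromosome 12, was the least even of the 5 among libraries. In elongating leaves of M202 its day 0 libraries had 2674, 764 and 781 CPM, so that the first stood apart. On day 6 it had 211, 233 and 383 CPM in elongating leaves of M202(Sub1) and 33.1, 72.3 and 64.3 CPM in its non-elongating leaves, against 310, 187 and 344 CPM and 29.5, 105 and 39.2 CPM in those of M202. It was higher in elongating leaves in all 4 comparisons of the leaf types, in M202(Sub1) by 1.78 ± 0.44 on day 3 and 2.28 ± 0.44 on day 6 and by 1.58 ± 0.43 and 2.12 ± 0.43 in M202 (log2, SE; edgeR adjusted p of at most 0.00317). The first of these ended without library 2 of the elongating leaves, with 1.14. The same day 0 library of M202 was low for OS07G0178700 on chromosome 7, described further on.

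OS04G0669900 (chromosome 4) rose between day 3 and day 6 in all 4 combinations. In elongating leaves of M202(Sub1) it had 23.6, 26.7 and 27.6 CPM on day 6 against 9.25, 8.64 and 9.87 CPM on day 3, and its day 6 mean was 78% of day 0. The log2 changes were 1.44 ± 0.20 and 1.12 ± 0.22 in elongating and non-elongating leaves of M202(Sub1) and 0.70 ± 0.20 and 0.99 ± 0.20 in those of M202 (SE; edgeR adjusted p of at most 0.00641), of which that in elongating leaves of M202 ended without its day 3 library 1, with 0.55. OS02G0129800 (chromosome 2) was called higher on day 6 in all 4 combinations too, although the change of 1.33 in non-elongating leaves of M202(Sub1) was no longer called without library 3 of day 3 (1.03) or library 2 of day 6 (1.13). In elongating leaves of M202 it had 22.4, 30 and 34.4 CPM on day 6 against 17.2, 15.5 and 15.1 CPM on day 3. It was higher in elongating than in non-elongating leaves by 2.02 ± 0.32 and 2.42 ± 0.25 on days 3 and 6 in M202(Sub1) and by 3.45 ± 0.32 and 2.53 ± 0.25 in M202 (log2, SE; edgeR adjusted p of at most 2.99e-06).

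Between days 3 and 6, 6 of the 100 genes rose in all 4 combinations of genotype and leaf type, none fell in all 4, and 43 were called in none of the 4 tests, beside 1.13%, 1.67% and 53.2% of all genes tested. In elongating leaves of M202(Sub1), 20 were higher on day 6 and 5 lower, where 6.74% and 7.13% of the 21453 genes tested were higher and lower. In its non-elongating leaves, 13 were higher and 1 was lower, against a background of 3.6% and 3.83%. In elongating leaves of M202, 17 were higher and 13 lower, near the background of 13.7% and 14.6%, and in its non-elongating leaves 21 were higher and 11 lower, against 13.9% and 15.3%. Calls are those of edgeR's quasi-likelihood test at an adjusted p under 0.05. The median log2 change of the 100 genes was 0.25 and 0.04 in elongating and non-elongating leaves of M202(Sub1) and -0.09 and 0.11 in those of M202, beside medians of all genes between -0.02 and 0.00. In M202(Sub1) the count of 14 in non-elongating leaves was 8 without library 1 of day 3 and 9 without library 3 of day 6, and the count of 25 in elongating leaves was 16 without library 3 of day 3.

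The genes called higher in elongating leaves overlapped between the lines by 11, which is 11 of the 20 in M202(Sub1) and 11 of the 17 in M202, where over all genes tested the overlap was 64.7% and 31.9% of the same lists. In non-elongating leaves the overlap was 11 of 13 in M202(Sub1) and 11 of 21 in M202, beside 64.6% and 16.7% over all genes. Next to APR1, OS03G0744700 on chromosome 3 was called higher in all 4 tests at a much lower level. It had 2.48, 4.31 and 3.72 CPM on day 6 against 1.16, 1.44 and 0.75 CPM on day 3 in elongating leaves of M202(Sub1), and 7.31, 4.14 and 5.89 CPM against 1.5, 2.24 and 1.36 CPM in non-elongating leaves of M202. Its day 6 means were 0.82 to 3.32% of day 0. Of its log2 fall it had regained 13.7 and 8.66% by day 6 in elongating and non-elongating leaves of M202(Sub1), and 20 and 23.4% in those of M202. Of its 4 calls, 3 depended on 1 library: the change of 1.61 in elongating leaves of M202(Sub1) was 1.35 without library 3 of day 3, that of 2.38 in its non-elongating leaves, where 2 of the day 3 libraries held 3 counts or fewer, was 2.10 without library 1 of day 3, and that of 1.44 in elongating leaves of M202 was 1.00 without library 2 of day 3.

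In the other direction, OS08G0139700 (chromosome 8) had 1.24, 0.479 and 0.31 CPM on day 6 against 4.92, 3.75 and 4 CPM on day 3 in elongating leaves of M202(Sub1), and 0, 0.237 and 0 CPM against 1.56, 0.987 and 2.02 CPM in those of M202. The libraries of the days did not overlap in either line. In M202(Sub1) the log2 change was -2.61 ± 0.48 (SE; edgeR adjusted p = 0.000128), and in M202 the fall was called as well (adjusted p = 0.000693), with day 6 at or under the lowest measurable level.

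**Figure D4:**
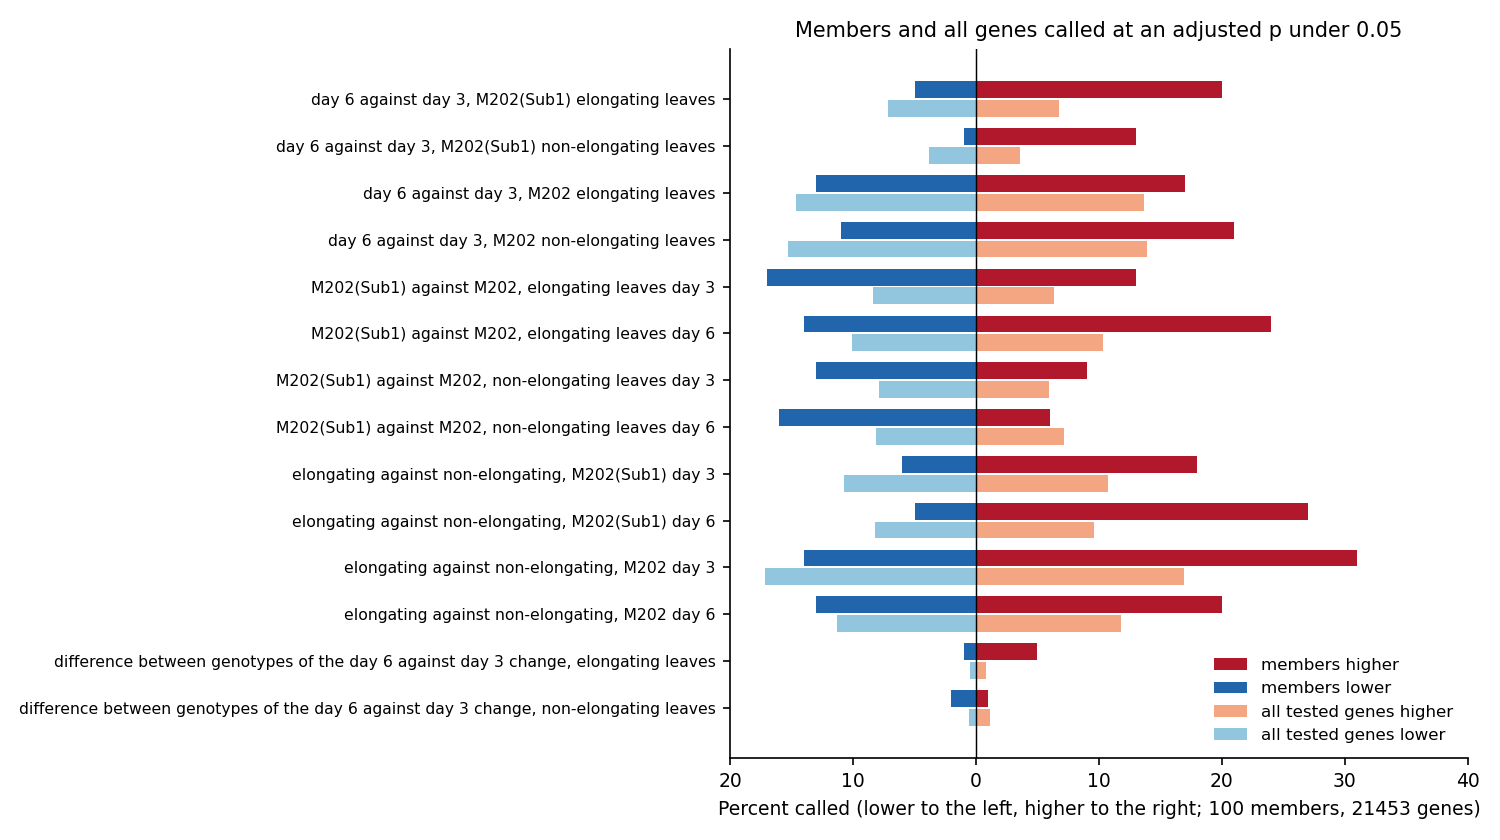
Percent of the 100 genes (dark bars) and of the 21453 genes tested (light bars) called higher (to the right) and lower (to the left) in each of 14 comparisons of days 3 and 6, by edgeR's quasi-likelihood test at an adjusted p under 0.05. The bars of the 100 genes pass those of all genes most in elongating against non-elongating leaves, with 27 higher beside 9.64% in M202(Sub1) on day 6 and 31 beside 16.9% in M202 on day 3.

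Comparing the lines on a given day, 5 of the 100 genes were lower in M202(Sub1) in all 4 comparisons, none was higher in all 4, and 40 were called in none, beside 2.15%, 1.64% and 64% of all genes tested. In elongating leaves on day 3, 13 were higher and 17 lower in M202(Sub1), beside 6.33% and 8.35% of all genes tested, and on day 6, 24 were higher and 14 lower, beside 10.3% and 10.1%. In non-elongating leaves on day 3, 9 were higher and 13 lower, beside 5.94% and 7.87%, and on day 6, 6 were higher and 16 lower, beside 7.17% and 8.13%. The median log2 difference of the 100 genes was -0.09 and 0.09 in elongating leaves on days 3 and 6, and 0.00 and -0.17 in non-elongating leaves. By group means, 78 of the 100 were already higher in M202(Sub1) on day 0 in elongating leaves, and 61 in non-elongating leaves. On day 1 it was 52 and 42. These counts were not tested or set against all genes, and days 0 and 1 chose the genes. The counts of 22 in non-elongating leaves were 14 without library 1 of M202 on day 3 and 14 without library 2 of M202(Sub1) on day 6. In elongating leaves, 7 genes were called higher and 11 lower on both days, which is 7 of 13 on day 3 and 7 of 24 on day 6 (59.2% and 36.5% over all genes tested), and 11 of 17 and 11 of 14 (57.3% and 47.5%). In non-elongating leaves the overlap was 2 higher, of 9 and 6 (45.7% and 37.8% over all genes), and 10 lower, of 13 and 16 (46.8% and 45.3%).

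Besides OS12G0189300, the genes lower in M202(Sub1) in all 4 comparisons included OS03G0821100 (chromosome 3). In non-elongating leaves on day 6 it had 0.725, 0.35 and 2.08 CPM in M202(Sub1) against 7.31, 5.28 and 10.4 CPM in M202, and in elongating leaves 1.74, 2.4 and 2.48 CPM against 4.73, 5.22 and 5.41 CPM. Its log2 differences on day 6 were -2.97 ± 0.39 in non-elongating and -1.29 ± 0.33 in elongating leaves (SE; edgeR adjusted p = 7.92e-08 and 0.00328). On day 0 the lines had been close, at 56.9 ± 11.1 against 51.9 ± 4.62 CPM in non-elongating leaves (SD, n = 3 each).

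OS09G0549450 (chromosome 9) went the other way. On day 3 it had 8.24, 7.2 and 8.25 CPM in elongating leaves of M202(Sub1) against 3.12, 2.96 and 2.19 CPM in M202, and 5.08, 5.71 and 6.84 CPM in non-elongating leaves against 1.2, 2.8 and 2.38 CPM. The log2 differences were 1.48 ± 0.31 and 1.52 ± 0.35 (SE; edgeR adjusted p = 0.000484 and 0.00132). On day 6 it was called in elongating leaves, with 0.94 ± 0.29, a call that ended without library 2 of M202 (0.67) or library 1 of M202(Sub1) (0.65).

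The largest number of calls came from the leaf types. Of the 100 genes, 8 were higher in elongating than in non-elongating leaves in all 4 comparisons, none was lower in all 4, and 38 were called in none, beside 4.38%, 3.25% and 52.2% of all genes tested. In M202(Sub1), 18 were higher and 6 lower in elongating leaves on day 3, where 10.7% of all genes were higher and 10.7% lower, and 27 were higher and 5 lower on day 6, against 9.64% and 8.18%. In M202, 31 were higher and 14 lower on day 3, against 16.9% and 17.2%, and 20 were higher and 13 lower on day 6, against 11.8% and 11.3%. The median log2 difference was 0.18 and 0.33 on days 3 and 6 in M202(Sub1) and 0.23 and 0.13 in M202, beside medians of all genes between -0.02 and 0.00. Called higher on both days were 13 genes in M202(Sub1), of 18 on day 3 and 27 on day 6, and 20 in M202, of 31 and 20. Over all genes tested these overlaps were 60.8% and 67.3% in M202(Sub1) and 48.1% and 68.9% in M202.

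A gene of the opposite leaf pattern was OS01G0179800 on chromosome 1. In M202 it had 2.12, 2.37 and 4.71 CPM in elongating leaves on day 6 against 11, 8.6 and 8.69 CPM in non-elongating leaves (log2 difference -1.75 ± 0.33 SE, edgeR adjusted p = 6.38e-05). Elongating leaves of M202(Sub1) had 7.58, 10.3 and 12.4 CPM on day 6, above those of M202 in every library (log2 difference 1.67 ± 0.33, edgeR adjusted p = 0.000158). Its day 0 level differed between the leaf types in the same direction, at 133 ± 25.1 against 313 ± 6.33 CPM in M202(Sub1) and 71.8 ± 9.24 against 264 ± 27.4 CPM in M202 (SD, n = 3 each).

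The change from day 3 to day 6 itself differed between the lines for 6 of the 100 genes in elongating leaves, where it was higher in M202(Sub1) for 5 and lower for 1, beside 0.848% and 0.461% of all genes. In non-elongating leaves it was higher for 1 and lower for 2, beside 1.12% and 0.559%. These small counts moved between 3 and 6 and between 1 and 7 when single libraries of days 3 and 6 were left out. Of the 9 differences, those of OS03G0197100, OS07G0691200 and OS01G0639900 in elongating leaves and of OS04G0244800 in non-elongating leaves were called with every library left out in turn, and these genes were named after their values were seen.

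OS03G0197100 (chromosome 3), among the lowest of all by score, had 11.7, 8.62 and 8.67 CPM on day 6 against 4.77, 4.03 and 6.37 CPM on day 3 in elongating leaves of M202(Sub1), and 5.79, 6.05 and 8.6 CPM against 16.7, 15.5 and 11.3 CPM in those of M202. It was called higher on day 6 in M202(Sub1) and lower in M202, and the log2 changes differed by 1.98 ± 0.40 (SE; edgeR adjusted p = 0.00491). The rise in M202(Sub1) by itself was no longer called without library 1 or 2 of day 3 (0.83 and 0.76) or library 1 or 3 of day 6 (0.71 and 0.94). OS07G0691200 (chromosome 7) had 64.2, 66.8 and 80.2 CPM on day 6 against 31.5, 30.8 and 33 CPM on day 3 in elongating leaves of M202(Sub1), and 80, 81.4 and 90.1 CPM against 86.2, 76.6 and 99.5 CPM in those of M202. The difference of its log2 changes was 1.15 ± 0.22 (SE; edgeR adjusted p = 0.00254), and on day 6 the level in M202(Sub1) was near that of M202.

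OS01G0639900 (chromosome 1) had 349, 376 and 295 CPM on day 6 against 229, 145 and 221 CPM on day 3 in elongating leaves of M202(Sub1), and 80.9, 93.7 and 70 CPM against 113, 94.1 and 111 CPM in those of M202. Its log2 changes differed by 1.11 ± 0.23 (SE; edgeR adjusted p = 0.00547), and on day 6 M202(Sub1) stood higher by 1.98 ± 0.16 on the log2 scale (adjusted p = 2.1e-13). OS04G0244800 (chromosome 4) had, in non-elongating leaves of M202(Sub1), 12.7, 13.1 and 10.9 CPM on day 6 against 20.8, 16 and 20.3 CPM on day 3, and 18.6, 17.7 and 21.4 CPM against 15.9, 14.7 and 15.8 CPM in those of M202. It fell in M202(Sub1) and rose in M202, with a difference of log2 changes of -1.20 ± 0.25 (SE; edgeR adjusted p = 0.00575). Each change by itself depended on single libraries. The fall in M202(Sub1) was no longer called without library 1 or 3 of day 3 (-0.62 and -0.59) or library 3 of day 6 (-0.63), and the rise in M202 without library 2 of day 3 (0.50) or library 3 of day 6 (0.46), or with these groups fitted alone (0.55).

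**Figure D5:**
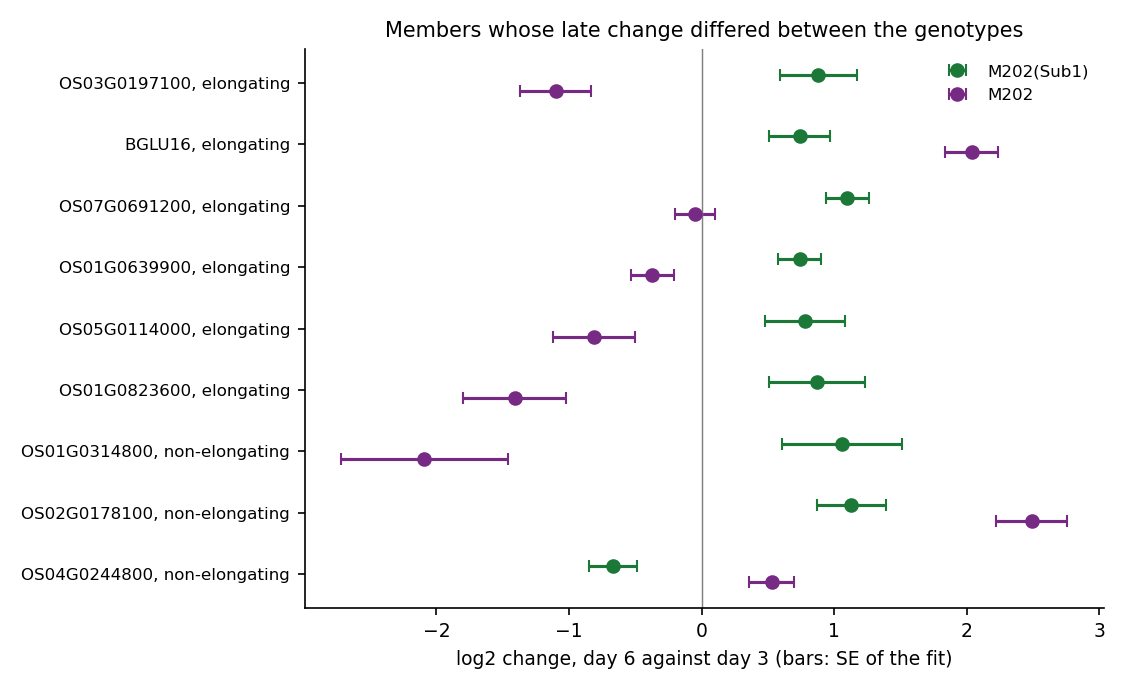
Log2 change from day 3 to day 6 (horizontal axis) in M202(Sub1) and in M202 for the 9 genes whose change was called different between the lines; points are the estimates of edgeR's fit and bars are their SE. The estimates of OS03G0197100 lie above 0 in M202(Sub1) and below 0 in M202, and those of OS04G0244800 below 0 in M202(Sub1) and above 0 in M202.

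Set among the pathway lists, 6 of the 100 genes belonged to the 13 lists of 138 genes drawn from general knowledge with earlier results of these data known. Of the 105 list genes that met the day 0 threshold these 6 are 5.71%, beside 1.47% of all genes that met it. They are 2 of 7 abundant aquaporin genes, 2 of 11 in sucrose and starch synthesis, 1 of 4 in nitrogen assimilation and 1 of 5 phenylpropanoid genes. None of the 23 abundant genes of light harvesting and the photosystems, of 11 in the Calvin cycle, 8 in photorespiration, 9 in chlorophyll synthesis, 6 in carotenoid and abscisic acid synthesis, 7 cellulose synthases, 8 clock genes and 6 genes of reactive oxygen metabolism was among the 100. The ranks of these genes by score among the 6785, from the lowest up, differed between lists. The median rank was 706 in photorespiration, 836 in the Calvin cycle, 1083 in carotenoid and abscisic acid synthesis and 1085 in cellulose synthases. It was 2758 in light harvesting and the photosystems, 3877 in reactive oxygen metabolism, 4006 in chlorophyll synthesis and 4688 in clock genes. The next 100 genes held 1 photorespiration, 1 Calvin cycle and 1 cellulose synthase gene. The 5 fermentation genes listed did not meet the day 0 threshold. These counts and ranks describe the choice of genes and were not tested. The lists do not hold every gene of a pathway, so they say nothing of genes outside them. OS12G0291400, among the 100 and in no list, has an identifier between OS12G0291100 and OS12G0292400, both listed for the small subunit of Rubisco. Its own product was not checked.

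The other abundant aquaporin genes of the list had day 1 values unlike those of PIP2;7 and TIP1;2, whose scores were -4.41 and -4.24. PIP1;1, PIP1;2, PIP2;1 and TIP1;1 had scores of -0.28, 0.21, 0.18 and 0.29, and TIP2;2 had 1.90. In the tests of later days, 9 of the 13 listed aquaporin genes outside the 100 had enough counts. By edgeR's and by DESeq2's test none of these 9 was higher in elongating than in non-elongating leaves on either day in either line, the direction in which PIP2;7 was called in all 4 comparisons. At an unadjusted edgeR p under 0.05, 1 was higher, in M202 on day 6, and 0 in the other 3 comparisons. Lower in elongating leaves were 5 and 4 of them on days 3 and 6 in M202(Sub1), and 7 on day 3 in M202. On day 6 in M202 the count was 0 by edgeR, 2 at an unadjusted p under 0.05 and 1 by DESeq2. On day 6 against day 3, 1 was lower in elongating leaves of M202(Sub1), and in M202 1 was higher and 2 were lower in elongating leaves and 8 were lower in non-elongating leaves. In elongating leaves on day 6, where PIP2;7 was higher in M202(Sub1) than in M202, PIP2;6 and TIP1;1 were lower. Their log2 differences were -1.30 ± 0.24 and -0.69 ± 0.20 (SE; edgeR adjusted p = 5.25e-05 and 0.00837), and the others were not called.

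In nitrogen assimilation, NIA1 stood beside GLN2 and GLN1;1, which had scores of -1.17 and -0.43. They are genes for plastid and cytosolic glutamine synthetase, which joins ammonium to glutamate. The 4 abundant genes of this list, NIA1 among them, had a median rank by score of 464 among the 6785. Only NIA1 of these 4 was among the lowest 200. Of the 6 listed genes outside the 100, 3 were called higher in M202(Sub1) in elongating leaves on day 6, the direction called for NIA1 there, and 1 in non-elongating leaves on day 6. In sucrose and starch synthesis, 3 of the 11 abundant genes were among the lowest 200 by score, SS1 and OS04G0409200 included. The median rank of the abundant genes of this list was 948. Of the 12 listed genes outside the 100, 11 were tested on the later days. On day 6 against day 3 in elongating leaves of M202, where SS1 rose, 4 of these 11 were lower and 0 higher by edgeR, also 0 at an unadjusted p under 0.05 and by DESeq2. Among them AGPS2, for the small subunit of ADP-glucose pyrophosphorylase that supplies starch synthases, had a score of -0.01 and a log2 change there of -0.74. Of the 6 phenylpropanoid genes outside the 100, all tested, 3 were lower in M202(Sub1) in elongating leaves on day 3 and 1 on day 6, where OS04G0518400 was lower as well. In all 4 comparisons of the lines 0 were higher by edgeR, at an unadjusted p under 0.05 and by DESeq2.

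By chromosome, as the identifiers give it, the largest shares of the abundant genes belonged to the 100 on chromosome 7, with 14 genes or 2.58% of its abundant genes, and on chromosome 4, with 14 genes or 2.5%. Chromosome 10 had the smallest share, with 2 genes or 0.633%. Within 5 places of each other in the order of identifiers lay 12 of the 100 genes, as 6 pairs, and 10 of the next 100 genes in the ranking. The pair OS07G0178700 and OS07G0178800 on chromosome 7, the second of them named as the neighbour of the first after its values were seen, stood side by side. OS07G0178700 had 357, 331 and 377 CPM on day 0 in elongating and 1138, 841 and 712 CPM in non-elongating leaves of M202(Sub1), and 44.4, 290 and 175 CPM and 506, 1026 and 765 CPM in those of M202, where the first library of each leaf type was the lowest.

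After day 0, OS07G0178700 was measurable mainly in elongating leaves of M202. There it had 3.69, 3.03 and 3.8 CPM on day 1, 19.5, 15.5 and 17.3 CPM on day 3 and 4.92, 5.7 and 6.1 CPM on day 6. Elongating leaves of M202(Sub1) had 0.434, 0.288 and 0.125 CPM on day 3 and 0.497, 2.04 and 1.86 CPM on day 6, below every M202 library of the same day. The difference between the lines was called on both days (edgeR adjusted p = 1.49e-08 on day 3 and 0.0126 on day 6), the later one no longer without library 1 of M202(Sub1), where its log2 difference was -1.59 instead of -2.01. In M202 the level fell between the days, with a log2 change of -1.64 ± 0.42 (SE; edgeR adjusted p = 0.00237).

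Over all 14 comparisons of days 3 and 6, 81 of the 100 genes were called at least once and 19 never, where 69.9% of all genes tested were called at least once. All 100 passed the filter on low counts, for which their day 0 level alone was enough. With the compared groups fitted alone, 63 to 82 of them were tested, so the others entered a comparison only through groups outside it. In the single comparisons, 11 to 21 of the 100 genes averaged under 1 CPM in all groups compared. Of the calls counted above, 0 to 4 in each comparison were of such genes, the 4 in M202(Sub1) against M202 in elongating leaves on day 6.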

How the data were processed

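Total RNA of leaves was sequenced in pairs of reads, per the labels. The values are unnormalized gene counts as the authors deposited them. STAR, featureCounts, DESeq2 and the rice assembly IRGSP-1.0 are named in the submitters' processing notes, with tool versions not given in the sources used here. Between 62.3 and 73.8% of the nonzero counts in a library were even, as when each pair is counted as 2 reads, and counts are then not independent reads. Limits from counts, such as the floor of 3 counts, cover counting error only.

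The 100 genes and the gene lists were chosen with earlier results of these data known. From the deposited counts, CPM were computed with the column totals, and ratios to day 0 used log2 of group means with a pseudocount of 1. Days 3 and 6 were tested with edgeR 4.0.16 (R 4.3.3; filterByExpr with minimum count 10 and minimum total 15, TMM factors of 0.834 to 1.1, glmQLFit and glmQLFTest) in 1 fit of 16 groups and 48 libraries, with 32 residual degrees of freedom and a common biological coefficient of variation of 0.152. The 21453 genes kept include all 100. Tests were two-sided, p-values were adjusted over all genes by Benjamini and Hochberg, and the threshold was 0.05. The model was tested on simulated data. The SE of a log2 value is its size over the square root of the F statistic.

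Named in the text are the members of the pathway lists, the lowest by score, the highest and lowest on day 6 relative to day 0, those called most often in each family of comparisons and those at the limit of the choice, with at most 2 without a symbol from each, apart from genes said to be named after their values were seen. APR1 and BGLU16 took their symbols after their values were seen. Symbols were checked by symbol, chromosome and order in a RefSeq table that shares no identifiers with the files. Sequences and coordinates were not used here. Same-numbered libraries had correlations of their deviations between -0.41 and 0.47, and in 2 of the 14 comparisons every pair was over 0.1: M202(Sub1) against M202 in non-elongating leaves on day 3, and elongating against non-elongating leaves of M202(Sub1) on day 6. The alternatives were RLE scaling, no filter, a replicate block, the compared groups fitted alone, DESeq2 1.42.0, each library left out, and other pseudocounts, thresholds and scalings in the choice of genes.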

Additional observations from a re-analysis of the deposited data

Results flagged for a closer look

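For 9 of the 100 genes the log2 change from day 3 to day 6 differed between M202(Sub1) and M202 in a test of that difference (edgeR quasi-likelihood test, p adjusted over all genes). Differences are the change in M202(Sub1) minus the change in M202, with SE. In elongating leaves they were 1.98 ± 0.40 for OS03G0197100 (adjusted p = 0.00491), 1.15 ± 0.22 for OS07G0691200 (adjusted p = 0.00254) and 1.11 ± 0.23 for OS01G0639900 (adjusted p = 0.00547), and in non-elongating leaves -1.20 ± 0.25 for OS04G0244800 (adjusted p = 0.00575). These 4 were called with every library left out in turn.

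The other 5 rested on single libraries. In elongating leaves BGLU16 had -1.30 ± 0.31 (adjusted p = 0.0211), having gained more in M202. Its call ended without library 1 of any of the 4 groups, with -1.18 to -1.29, and without library 2 of M202(Sub1) on day 3, with -1.19. OS01G0823600 had 2.28 ± 0.53 (adjusted p = 0.0178), and its call ended without library 1 of M202 on day 3 (1.95), without library 1 of M202 on day 6 (2.30) or without library 1 of M202(Sub1) on day 6 (2.10). OS05G0114000 had 1.59 ± 0.43 (adjusted p = 0.0477), and its call ended without any 1 of the 12 libraries compared, with differences of 1.37 to 1.72.

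In non-elongating leaves OS01G0314800 had 3.15 ± 0.77 (adjusted p = 0.0209). On day 6 it had 4.71, 7.71 and 2.08 CPM in M202(Sub1) against 0.655, 0.414 and 0.42 CPM in M202, close to the lowest measurable level of 0.289 to 0.616 CPM, so the size of the difference is uncertain. Its call ended without library 2 of M202 (2.96) or of M202(Sub1) (2.82) on day 3, and without library 3 of M202 (3.04) or library 2 of M202(Sub1) (2.65) on day 6. OS02G0178100 had -1.36 ± 0.37 (adjusted p = 0.0448). It rose in both lines, with log2 changes of 1.13 in M202(Sub1) and 2.49 in M202. Its call held without library 3 of M202 on day 3, library 1 of M202 on day 6 or library 3 of M202(Sub1) on day 6, and ended without any 1 of the other 9 libraries, with -1.47 to -1.07.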

How the results depend on the processing

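With the pseudocount of the score at 0.5 or 5, 100 and 80 of the genes were chosen again. With a day 0 threshold of 10 or 50 CPM it was 82 and 58, with TMM-scaled CPM 97, with the mean of the 4 ratios in place of the highest 89, and with 1 library left out 95 to 100. The median log2 ratio to day 0 with pseudocounts of 0.5 and 5 was, in elongating leaves of M202(Sub1), -4.54 and -3.31 on day 3 and -4.34 and -3.17 on day 6, and in its non-elongating leaves -4.94 and -3.58 on day 3 and -5.13 and -3.45 on day 6. In M202 it was -4.07 and -3.09, then -4.43 and -2.95, in elongating leaves, and -4.83 and -3.51, then -4.90 and -3.50, in non-elongating leaves. With TMM-scaled CPM it was -4.46 and -4.29 on days 3 and 6 in elongating leaves of M202(Sub1). The next 100 genes of the ranking, an alternative chosen after seeing the data, had medians on days 3 and 6 of -2.79 and -2.33 in elongating and -3.08 and -2.84 in non-elongating leaves of M202(Sub1), and of -2.42 and -2.30 and of -2.49 and -2.59 in M202. Among the calls, fitting the compared groups alone, with fewer libraries and fewer of the 100 genes tested, gave 21 for day 6 against day 3 in non-elongating leaves of M202, 12 for M202(Sub1) against M202 in non-elongating leaves on day 6, 21 for elongating against non-elongating leaves of M202 on day 6, and 10 and 1 for the difference between lines in elongating and non-elongating leaves. For that difference, no filter gave 11 and 6 and DESeq2 14 and 5; the cause was not tested. With the replicate block, calls were 26 and 14 (M202(Sub1)) and 30 and 32 (M202) for day 6 against day 3 in elongating and non-elongating leaves, 29, 38, 21 and 22 for M202(Sub1) against M202 in elongating leaves on days 3 and 6 and non-elongating leaves on days 3 and 6, 24 and 32 (M202(Sub1)) and 45 and 33 (M202) between leaves on days 3 and 6, and 6 and 3 for the difference between lines in elongating and non-elongating leaves. These and the RLE counts were within 1.5 times, and the block ended 1 call of a named gene, OS01G0639900 between lines in non-elongating leaves on day 3 (0.49). With 1 library left out, calls for day 6 against day 3 ranged over 16 to 26 and 8 to 12 in elongating and non-elongating leaves of M202(Sub1), and 23 to 30 and 27 to 33 in M202. Between lines they ranged over 21 to 26 and 29 to 33 on days 3 and 6 in elongating leaves and over 14 to 20 and 14 to 24 in non-elongating leaves. Between leaves they ranged over 17 to 28 and 25 to 27 on days 3 and 6 in M202(Sub1) and over 37 to 42 and 24 to 32 in M202, and for the difference between lines over 3 to 6 in elongating and 1 to 7 in non-elongating leaves. The lowest counts past 1.5 times came without library 3 of elongating leaves of M202(Sub1) on day 3 (16) and without library 1 of its non-elongating leaves on day 3 (8), and between lines in non-elongating leaves without library 1 of M202 on day 3 (14) or library 2 of M202(Sub1) on day 6 (14). Medians ranged on days 3 and 6 over -4.44 to -4.30 and -4.17 to -4.06 in elongating and -4.73 to -4.63 and -4.77 to -4.70 in non-elongating leaves of M202(Sub1), and over -3.97 to -3.79 and -4.24 to -4.05 and over -4.66 to -4.48 and -4.76 to -4.54 in M202. Of 152 calls of 29 named genes, 53 ended with some library left out, 12 with groups fitted alone, 3 with RLE, 1 with no filter, 1 with the block and 0 with DESeq2. No called change or difference of the 29 named genes turned its sign under these alternatives. Calls of the other genes were compared by their counts alone. The order of the medians of days 6 and 3 did turn with a pseudocount of 5 in all combinations but elongating leaves of M202(Sub1). In non-elongating leaves of M202 it also turned with TMM-scaled CPM (-4.50 on day 6 and -4.58 on day 3).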
